A study of Mus musculus with 9 samples.

Results

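The potassium channel genes were taken as every gene whose array symbol starts with Kcn. They comprised 84 genes of the 18193 genes measured, read by 167 of the 34945 probe sets that carry 1 gene symbol. Each gene was represented by its probe set of highest mean over all 9 arrays, and this choice used no difference between groups. The genes were grouped by subfamily letter and then by role into 22 voltage-gated pore subunits, 9 silent modifier subunits, 15 auxiliary subunits, 8 pores of the calcium- or sodium-activated families, 15 inward rectifiers, 12 tandem-pore leak channels and 3 noncoding transcripts named after a channel gene.

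The study profiled mouse primary cortical neurons, neural stem cells (NSCs) and YAP-induced NSC-like cells (yNSCs) on Affymetrix arrays, with 3 biological replicas, A, B and C, in each group. Neurons were dissociated cortical cultures kept in serum-free neuronal medium with the mitotic inhibitor AraC, and were not sorted. The yNSCs were derived from such cortical neurons that carried lentiviral, doxycycline-inducible YAP, a transcriptional co-activator restrained by the Hippo pathway, and were afterwards propagated without doxycycline. NSCs and yNSCs shared a medium with EGF, bFGF and heparin, so that both differed from neurons in medium as well as in cell type. The labels state neither strain nor age for the cells on these arrays. Values are log2 expression after RMA (the Affymetrix summary that corrects background, normalizes and combines probes), and a difference of 1 is a 2-fold change.

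Potassium channels let potassium leave the cell and thereby set the resting potential, end the action potential and limit repetitive firing. Voltage-gated pores open on depolarisation, and silent modifiers carry no current of their own but alter the pores they join. Auxiliary subunits change the gating or surface level of pores, inward rectifiers and leak channels hold the resting potential, and in brain the inward rectifier Kcnj10 is known for potassium uptake by glia.

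Promoters of 3 genes that differed by more than 2-fold between yNSCs and NSCs are shown first, Kcnd2 and Kcnd3, which were lower in yNSCs, and Kcnj10, which was higher. The noncoding Kcnmb4os2 and Kcnq1ot1 also differed by more than 2-fold and are not shown. All of these have a RefSeq start at the outer end of the gene. Each sequence is the 250 bases before that start on GRCm38.p6, written along the plus strand, on which all 3 genes lie, with motif matches in capitals. Their positions are chr6:21215096-21215345 for Kcnd2, chr3:105451640-105451889 for Kcnd3 and chr1:172340960-172341209 for Kcnj10.
Kcnd2: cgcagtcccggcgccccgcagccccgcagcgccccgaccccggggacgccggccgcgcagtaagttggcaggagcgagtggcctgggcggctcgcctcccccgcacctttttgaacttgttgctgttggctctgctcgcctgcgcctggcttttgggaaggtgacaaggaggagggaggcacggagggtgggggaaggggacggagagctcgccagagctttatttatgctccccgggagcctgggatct
Kcnd3: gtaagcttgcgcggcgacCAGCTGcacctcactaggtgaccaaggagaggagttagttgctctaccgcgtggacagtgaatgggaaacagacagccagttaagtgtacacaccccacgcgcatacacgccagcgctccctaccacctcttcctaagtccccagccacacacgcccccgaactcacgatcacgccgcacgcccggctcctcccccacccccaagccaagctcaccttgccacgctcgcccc
Kcnj10: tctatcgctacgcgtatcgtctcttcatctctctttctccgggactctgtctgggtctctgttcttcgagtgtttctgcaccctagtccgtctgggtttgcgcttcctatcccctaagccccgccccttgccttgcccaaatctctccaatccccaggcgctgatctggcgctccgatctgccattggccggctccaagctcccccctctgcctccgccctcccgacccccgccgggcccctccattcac
The windows were 68.8%, 62.8% and 62.0% G or C, with 22, 18 and 17 CpG dinucleotides. The Kcnd3 window held 1 E-box of letters CAGCTG, beginning 232 bases before the start. The other windows shown held none of the 5 motifs searched.

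Promoters were matched for 64 of the 84 genes, in 89 windows, and 5 motifs were counted on both strands. Of the windows, 53 precede a start that lies inside the RefSeq gene, such as that of Kcnk1, whose start lies 1447 bases within it. Counted by gene, CATTCC, the motif of the TEAD proteins that YAP binds, occurred in 14 of the 64 genes (21.88%), against 14.36% of all 27025 genes with a window, and CAGCTG in 17 (26.56%) against 14.72%. Channel genes had more windows per gene than all genes, and counted by window the shares were 15.7% against 12.6% for CATTCC and 24.7% against 13.0% for CAGCTG. The AP-1 motif TGANTCA occurred in 4 genes (6.25%) against 7.82%. The cAMP response element TGACGTCA, in 1.77% of all genes, and the left arm of the neuron-restrictive silencer element, TTCAGCACC, in 0.35%, occurred in none of the 64. The median GC content of the windows was 58.8% for channel genes and 52.4% for all windows. These matches are descriptions of letters in these windows and not of binding.

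Channel genes were mostly lower in both stem cell groups than in neurons. In yNSCs 48 of 84 channel genes (57.1%) were lower than in neurons, where 27.9% of all genes were lower, and 10 (11.9%) were higher, where 34.6% of all genes were higher. In NSCs 50 (59.5%) were lower than in neurons against 34.1% of all genes, and 12 (14.3%) were higher against 33.3%. Calls were made with limma at a Benjamini-Hochberg adjusted p under 0.05 over all 18193 genes. Both comparisons use the same 3 neuron arrays, so they are not independent of each other. In these bulk samples fewer cells of a type and less RNA per cell cannot be told apart.

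The same held among larger differences. At a difference of at least 2-fold, 32 channel genes (38.1%) were lower in yNSCs than in neurons against 10.9% of all genes, and 3 (3.57%) were higher against 18.3%. The corresponding NSC counts were 31 lower (36.9%) against 12.6%, and 7 higher (8.33%) against 18.6%. The median difference over the 84 genes was -0.52 in yNSCs and -0.62 in NSCs, against -0.01 and -0.07 over all genes. Renormalizing the arrays by quantiles raised the median of all genes for NSCs minus neurons by 0.116 and gave 19 higher and 42 lower channel genes, so that 31.1% of called channel genes were higher in place of 19.4%. Subtracting the array medians lowered the median of all genes by 0.186 for yNSCs minus neurons, with 7 channel genes higher and 59 lower, and moved the share of higher calls over all genes from 55.3% to 41.6%. No called channel gene changed sign under either scaling.

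yNSCs and NSCs were closer to each other, and their direct comparison called 26 of the 84 genes. Of these, 10 (11.9%) were higher in yNSCs, where 21.3% of all genes were higher, and 16 (19.0%) were lower, where 18.0% of all genes were lower. At 2-fold or more, 3 (3.57%) were higher against 6.05%, and 8 (9.52%) were lower against 5.97%. The median difference was 0.06 over the channel genes and 0.07 over all genes, and it became negative for the channel genes, -0.07, after renormalizing by quantiles. The 58 genes that were not called had 95% confidence intervals with half-widths of 0.205 to 0.596, each inside 1 log2 unit, so smaller differences were not resolved.

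**Figure D1:**
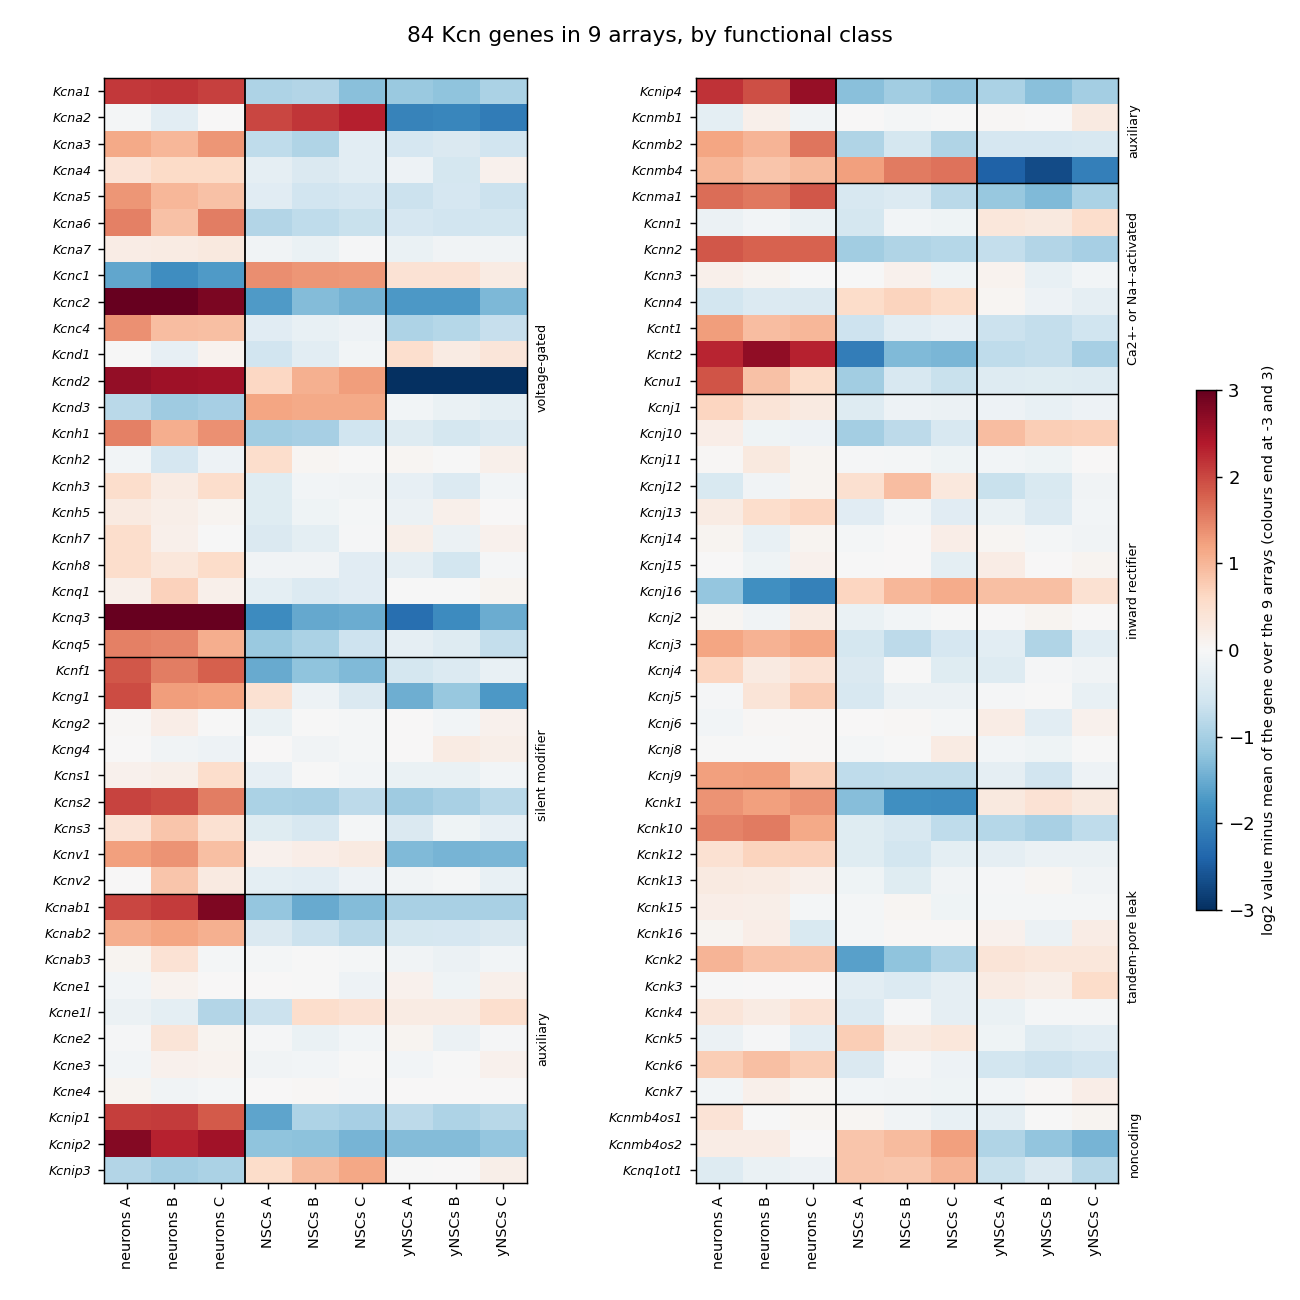
Log2 value of each of the 84 Kcn genes in the 9 arrays (columns) minus that gene's mean over the arrays, with genes in rows by functional class; red is above and blue below the gene's mean, and colours end at -3 and 3. The neuron columns are red for most voltage-gated, silent modifier and calcium- or sodium-activated genes, whereas Kcna2, Kcnc1, Kcnd3 and Kcnmb4 are highest in NSCs.

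The array medians lay between 4.90 and 5.02, and the lower quartiles between 3.42 and 3.73. A gene was described as near background in a group when its group mean fell below that group's mean lower quartile, 3.71 in neurons, 3.43 in NSCs and 3.49 in yNSCs. Of the 84 genes, 9 were near background in all groups (Kcne2, Kcne3, Kcnh5, Kcnj2, Kcnj8, Kcnj15, Kcnk15, Kcnmb4os1 and Kcnv2) and 62 were above it in all. NSC array A stood apart. For 162 genes, including 1 channel gene, Kcne1l, its value differed more than 2-fold from the average of arrays B and C of that group. Every other array, set likewise against the average of its remaining replicas, had at most 30 such genes. The median SD within groups over the channel genes was 0.177. With 3 arrays against 3, an exact two-sided permutation test of a single gene cannot fall below 0.1, so calls rest on the variance that limma shares across genes.

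All 8 neuron markers were higher in neurons than in either stem cell group. The log2 of the summed neural stem cell markers lay at 14.00 to 14.09 in neurons, 14.84 to 15.03 in NSCs and 14.77 to 14.79 in yNSCs. Its brightest members were Fabp7 (means of 13.55, 13.62 and 13.32) and Vim (11.46, 13.50 and 13.59). Of the 8 markers, 6 were higher in yNSCs and 7 in NSCs than in neurons, and Hes5 was lower in yNSCs by -0.84. Against NSCs, 4 were lower in yNSCs, where 18.0% of all genes were, and 1 was higher, where 21.3% were. The neuron cultures also carried other cell types' markers. Summed microglia and macrophage markers lay at 11.85 to 12.34 in neurons, 6.55 to 6.57 in NSCs and 7.53 to 7.56 in yNSCs, with Itgam near background in every group. Summed astrocyte markers lay at 13.77 to 13.85, 12.62 to 12.80 and 13.40 to 13.57, with none of the 8 near background.

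Most voltage-gated pores fell. Of 22 genes, 15 (68.2%) were lower in yNSCs than in neurons and 3 (13.6%) higher, against 27.9% and 34.6% of all genes. In NSCs 17 (77.3%) were lower and 4 (18.2%) higher, against 34.1% and 33.3%. All 7 Kcna genes, which encode Shaker-type pores, were lower in yNSCs by 0.40 to 3.20 on the log2 scale, whereas in NSCs 6 were lower and Kcna2 was higher. Between yNSCs and NSCs, 2 voltage-gated genes (9.1%) were higher in yNSCs and 5 (22.7%) lower, against 21.3% and 18.0% of all genes, and 15 were not called.

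Kcnq3, a subunit of the M-current that damps repetitive firing, read 9.77, 9.99 and 10.23 in neurons A, B and C, 4.61, 4.95 and 5.01 in NSCs, and 4.22, 4.61 and 5.0 in yNSCs. The neuron arrays stood far above the others, and the NSC and yNSC arrays overlapped. The difference from neurons was -5.39 ± 0.19 (SE; adjusted p = 2.17e-10) in yNSCs and -5.14 ± 0.19 (adjusted p = 2.96e-10) in NSCs. Between yNSCs and NSCs it was -0.25, with a 95% interval of -0.66 to 0.17.

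Its relative Kcnq5, also an M-current subunit, read 8.31, 8.26 and 7.89 in neurons, 5.69, 5.86 and 6.18 in NSCs, and 6.53, 6.41 and 6.09 in yNSCs. Neurons were again highest without overlap, at -1.81 ± 0.16 for yNSCs and -2.24 ± 0.16 for NSCs. The yNSC arrays overlapped the NSC arrays, and the difference of 0.43 ± 0.16 missed the threshold (adjusted p = 0.0541) but passed it without NSC replicate C (0.57, adjusted p = 0.0216) or without yNSC replicate C (0.56, adjusted p = 0.0279).

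Kcnc2, a fast delayed rectifier of rapidly firing neurons, read 7.74, 7.55 and 7.26 in neurons, 2.74, 3.14 and 3.04 in NSCs, and 2.72, 2.73 and 3.10 in yNSCs. Every stem cell array lay below the lower quartiles given above, so the fall is a bound. Against the background level, Kcnc2 was at least 17-fold lower in NSCs (adjusted p = 1.64e-10) and at least 16.3-fold lower in yNSCs (adjusted p = 1.38e-10).

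Kcnc1, the closest relative of Kcnc2, ran the other way and read 7.25, 6.95 and 7.12 in neurons, 10.21, 10.13 and 10.11 in NSCs, and 9.26, 9.25 and 9.06 in yNSCs. The groups did not overlap, with NSCs highest and neurons lowest. Kcnc1 was higher than in neurons by 3.04 ± 0.11 in NSCs (adjusted p = 2.25e-10) and by 2.08 ± 0.11 in yNSCs (adjusted p = 6.46e-09), and lower in yNSCs than in NSCs by -0.96 ± 0.11 (adjusted p = 2.09e-05). Of its 4 probe sets, 1 was called in the opposite direction in both comparisons with neurons, at -0.60 in NSCs and -0.34 in yNSCs, with means of 5.65 in neurons, 5.05 in NSCs and 5.31 in yNSCs.

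The Kcnd genes encode pores of the transient A-type current, which opens below threshold and delays firing, and they split 3 ways. Kcnd2 read 9.76, 9.65 and 9.64 in neurons, 7.73, 8.19 and 8.38 in NSCs, and 3.87, 3.48 and 3.34 in yNSCs. No array of 1 group overlapped another, and yNSC arrays B and C lay below the lower quartile of their group. Kcnd2 was lower in yNSCs by -6.12 ± 0.17 against neurons (adjusted p = 3.09e-11) and by -4.54 ± 0.17 against NSCs (adjusted p = 2.51e-09), and in NSCs by -1.58 ± 0.17 against neurons (adjusted p = 4.6e-06). It was the largest fall of any channel gene in both yNSC comparisons.

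Kcnd3 read 8.89, 8.64 and 8.7 in neurons, 10.90, 10.84 and 10.85 in NSCs, and 9.63, 9.50 and 9.42 in yNSCs. The yNSC arrays lay between the others without overlap. It was higher than in neurons by 2.12 ± 0.10 in NSCs and 0.77 ± 0.10 in yNSCs, and lower in yNSCs than in NSCs by -1.35 ± 0.10 (adjusted p = 8.46e-07). Another of its 4 probe sets, with means of 4.65 in NSCs and 5.84 in yNSCs, was 1.19 higher in yNSCs (adjusted p = 0.000219), so the direction between the stem cell groups depended on the probe set.

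Kcnd1 read 5.87, 5.63 and 5.97 in neurons, 5.30, 5.56 and 5.80 in NSCs, and 6.39, 6.12 and 6.24 in yNSCs. The yNSC arrays were highest without overlap, whereas the neuron and NSC arrays overlapped, at -0.27 ± 0.14 for NSCs (adjusted p = 0.113). This difference was called after subtracting array medians, with the mean of all probe sets and without NSC replicate C (adjusted p = 0.0158, 0.0334 and 0.034). It was higher in yNSCs than in NSCs by 0.70 ± 0.14 (adjusted p = 0.00193). Its rise against neurons, 0.43 ± 0.14 (adjusted p = 0.0206), was lost under both scalings, at 0.28 after renormalizing by quantiles (adjusted p = 0.102) and 0.24 after subtracting array medians (adjusted p = 0.125), with the mean of all probe sets, at 0.18 (adjusted p = 0.172), and when either neuron replicate B or yNSC replicate A was left out (adjusted p = 0.0832 and 0.0852).

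Kcna2, an axonal channel of myelinated fibres, read 7.56, 7.30 and 7.63 in neurons, 9.62, 9.78 and 9.95 in NSCs, and 5.62, 5.66 and 5.52 in yNSCs. The 3 groups were fully apart, and neurons lay between the stem cell groups. It was 18.2-fold lower in yNSCs than in NSCs (-4.18 ± 0.12, adjusted p = 3.42e-10), while it stood 2.29 ± 0.12 above neurons in NSCs and at -1.90 ± 0.12 against neurons in yNSCs. A further bright probe set gave -4.28 between yNSCs and NSCs, and 2 dim sets with group means between 3.06 and 4.49 were slightly lower in NSCs than in neurons, by -0.40 and -0.39.

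Oligodendrocyte lineage markers also differed between the stem cell groups. Their sum over 7 measured genes lay at 12.15 to 12.18 in neurons, 13.31 to 13.51 in NSCs and 13.10 to 13.12 in yNSCs, with the mature marker Mog near background in every group. Olig1 and Olig2 dominated this sum and were higher in both stem cell groups than in neurons. By contrast, 4 of the 7 (57.1%, against 27.9% of all genes) were lower in yNSCs than in neurons, among them Pdgfra by -5.57 and Mbp by -2.55. In NSCs 3 (42.9%) were higher and 3 (42.9%) lower than in neurons, against 33.3% and 34.1%. Between the stem cell groups 0 were higher in yNSCs and 3 (42.9%, against 18.0%) lower, namely Pdgfra by -3.12, Cspg4 by -2.20 and Olig2 by -0.73. Their part in the differences of Kcna2, Kcnd3, Kcnc1 and Kcnj16 was not tested.

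Kcnh1, an ether-a-go-go channel, read 6.44, 6.02 and 6.28 in neurons, 3.87, 3.93 and 4.32 in NSCs, and 4.53, 4.39 and 4.50 in yNSCs. Neurons were highest, with -1.77 ± 0.14 for yNSCs and -2.21 ± 0.14 for NSCs. The yNSC arrays sat just above the NSC arrays, and this difference of 0.43 ± 0.14 (adjusted p = 0.0295) missed the threshold after renormalizing by quantiles (adjusted p = 0.161) and without any 1 of NSC replicates A and B and yNSC replicates A and C (adjusted p = 0.0813 to 0.103).

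Kcnh2, the ether-a-go-go related channel also known from cardiac repolarisation, read 6.25, 5.83 and 6.18 in neurons, 6.87, 6.40 and 6.32 in NSCs, and 6.41, 6.32 and 6.49 in yNSCs. Stem cell arrays lay slightly above the neuron arrays. The rise in NSCs of 0.44 ± 0.16 (adjusted p = 0.0246) was lost under both scalings, at 0.24 and 0.31, and without neuron replicate B (adjusted p = 0.104) or NSC replicate A (0.27, adjusted p = 0.0949). The difference in yNSCs, 0.32 ± 0.16, was not called (adjusted p = 0.0945) unless NSC replicate A was left out (adjusted p = 0.0367).

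**Figure D2:**
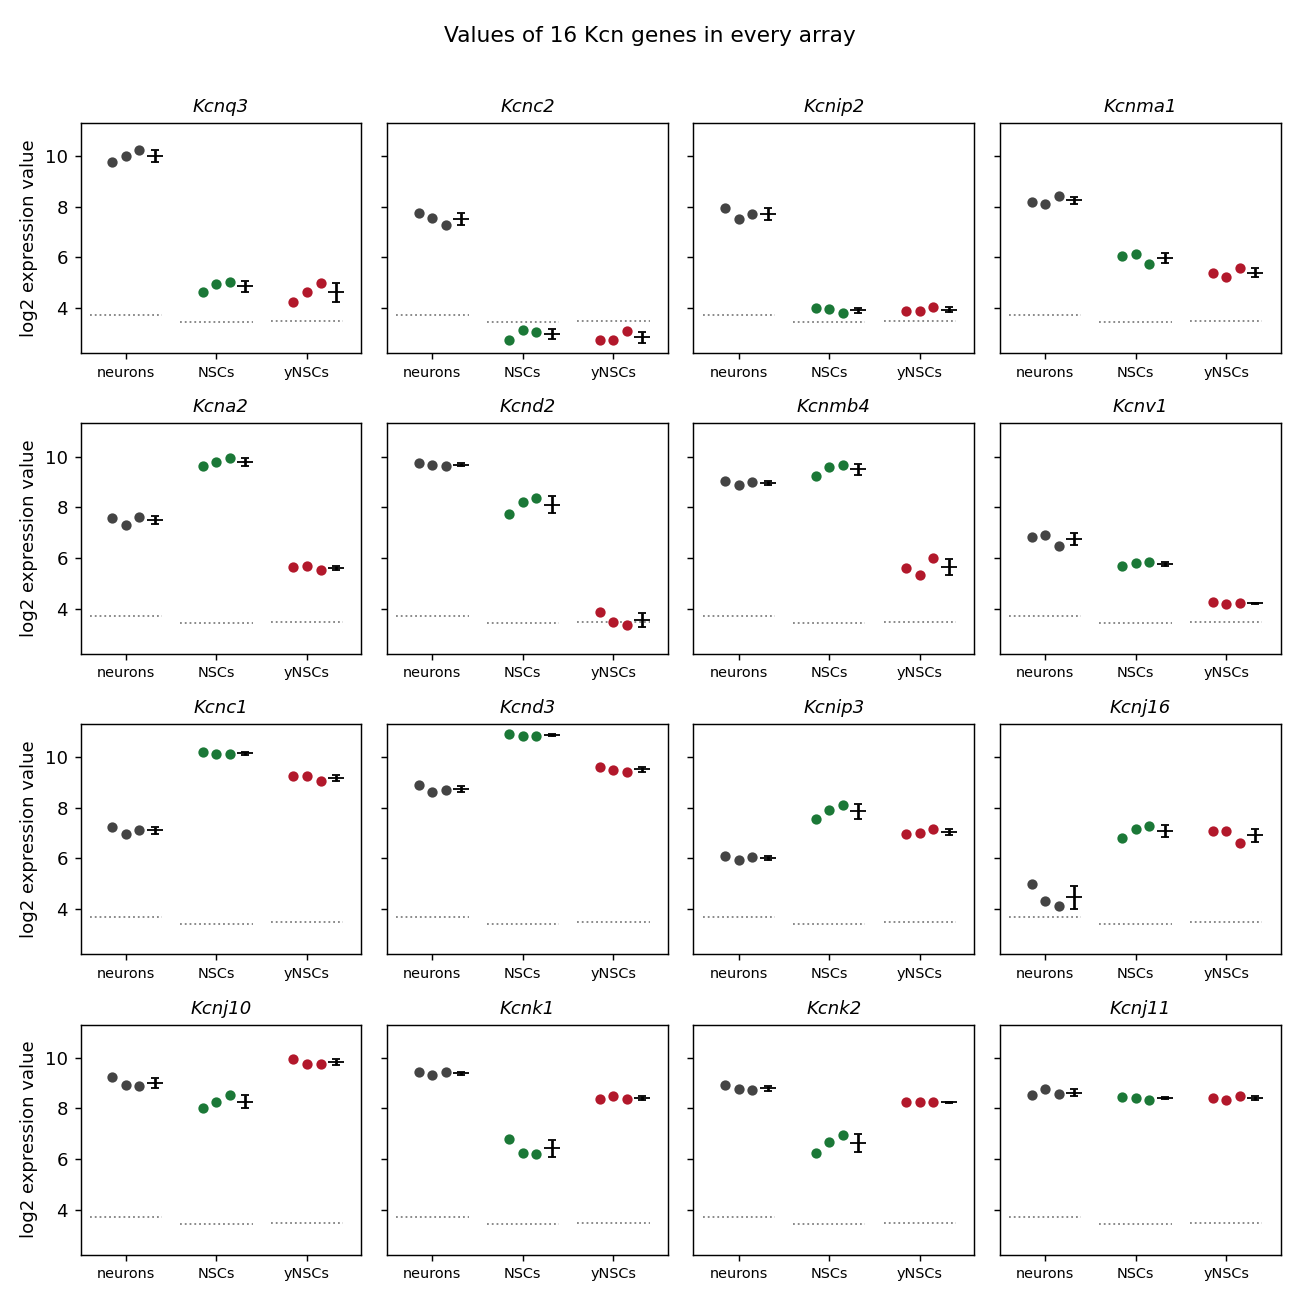
Log2 expression of 16 Kcn genes in each of the 3 neuron, 3 NSC and 3 yNSC arrays; points are arrays, bars are the group mean ± SD, and dotted lines are the mean lower quartile of each group's arrays. Kcnq3, Kcnc2 and Kcnip2 are high in neurons only, Kcnd2, Kcna2 and Kcnmb4 are lowest in yNSCs, and Kcnk1, Kcnk2 and Kcnj10 are lowest in NSCs.

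None of the 9 silent modifiers was higher in either stem cell group than in neurons, although Kcng4 was called higher in both after renormalizing by quantiles. In each group 7 (77.8%) were lower, against 27.9% of all genes in yNSCs and 34.1% in NSCs. Kcnf1 read 8.15, 7.82 and 8.08 in neurons, 4.78, 5.07 and 4.95 in NSCs, and 5.76, 5.87 and 6.05 in yNSCs. Neurons were highest and NSCs lowest without overlap, at -3.08 ± 0.13 for NSCs and -2.12 ± 0.13 for yNSCs against neurons, and 0.96 ± 0.13 for yNSCs against NSCs (adjusted p = 6.89e-05).

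Kcng1 read 7.28, 6.59 and 6.54 in neurons, 5.80, 5.19 and 4.90 in NSCs, and 3.87, 4.20 and 3.62 in yNSCs. Its groups were ordered neurons, NSCs, yNSCs without overlap. It was lower in yNSCs than in neurons by -2.91 ± 0.25 (adjusted p = 5.3e-07) and than in NSCs by -1.40 ± 0.25 (adjusted p = 0.000675).

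Kcnv1 had the same order, at 6.81, 6.92 and 6.47 in neurons, 5.69, 5.78 and 5.85 in NSCs, and 4.24, 4.18 and 4.20 in yNSCs. The spread among yNSC arrays was small beside the gap to NSCs. It was lower in yNSCs by -2.53 ± 0.12 against neurons and by -1.57 ± 0.12 against NSCs (adjusted p = 8.32e-07).

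Kcns2 read 6.09, 6.03 and 5.61 in neurons, 3.13, 3.10 and 3.29 in NSCs, and 3.0, 3.10 and 3.27 in yNSCs. All stem cell arrays were below the background level. The gene was at least 5.57-fold lower in NSCs (adjusted p = 3.91e-09) and at least 5.36-fold lower in yNSCs (adjusted p = 3.7e-09) than in neurons.

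Of the 15 auxiliary subunits, 7 (46.7%) were lower and 2 (13.3%) higher in yNSCs than in neurons, against 27.9% and 34.6% of all genes. In NSCs 6 were lower, where 34.1% of all genes were, and 2 (13.3%) higher, against 33.3%. After renormalizing by quantiles the NSC counts were 6 lower and 5 higher. The Kcnip genes encode calcium-binding proteins that join the A-type pores of the Kcnd genes. Kcnip2 read 7.94, 7.49 and 7.71 in neurons, 3.98, 3.96 and 3.80 in NSCs, and 3.88, 3.89 and 4.03 in yNSCs. Stem cell arrays overlapped one another far below neurons, with -3.78 ± 0.12 in yNSCs (adjusted p = 1.11e-10) and -3.80 ± 0.12 in NSCs (adjusted p = 9.73e-11), and the interval between yNSCs and NSCs was -0.25 to 0.29.

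Kcnip4 read 7.0, 6.77 and 7.44 in neurons, 3.58, 3.80 and 3.64 in NSCs, and 3.88, 3.58 and 3.82 in yNSCs. It followed the same pattern, with -3.31 ± 0.16 in yNSCs and -3.40 ± 0.16 in NSCs. Kcnip1 also fell, by 2.86 in yNSCs and 3.18 in NSCs.

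Kcnip3, a member that is also known as a transcriptional repressor, rose instead and read 6.10, 5.95 and 6.04 in neurons, 7.54, 7.93 and 8.13 in NSCs, and 6.97, 6.99 and 7.16 in yNSCs. Groups did not overlap, with yNSCs between neurons and NSCs. It was higher than in neurons by 1.84 ± 0.14 in NSCs (adjusted p = 1.88e-07) and by 1.01 ± 0.14 in yNSCs (adjusted p = 4.47e-05), and lower in yNSCs than in NSCs by -0.83 ± 0.14 (adjusted p = 0.000512).

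Kcnab1, a cytoplasmic subunit that speeds inactivation of Kcna channels, read 7.22, 7.32 and 8.03 in neurons, 4.05, 3.71 and 3.91 in NSCs, and 4.25, 4.25 and 4.25 in yNSCs. Neurons were highest, at -3.27 ± 0.18 for yNSCs and -3.63 ± 0.18 for NSCs. The yNSC arrays sat above the NSC arrays by 0.36 ± 0.18, which was not called (adjusted p = 0.148) but passed the threshold in a fit of only those 6 arrays (adjusted p = 0.0229) and without neuron replicate C (adjusted p = 0.0205).

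Kcnmb4, the auxiliary subunit of neuronal BK channels, read 9.03, 8.86 and 8.98 in neurons, 9.25, 9.58 and 9.65 in NSCs, and 5.61, 5.34 and 5.98 in yNSCs. Only the yNSC arrays were low. The gene was lower in yNSCs by -3.31 ± 0.16 against neurons (adjusted p = 3.17e-09) and by -3.85 ± 0.16 against NSCs (adjusted p = 4.71e-09), a 14.4-fold difference. Its rise of 0.54 ± 0.16 in NSCs against neurons (adjusted p = 0.0104) was lost after renormalizing by quantiles (0.24, adjusted p = 0.201).

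Kcnmb4os2, a noncoding gene that overlaps Kcnmb4 in RefSeq, moved in the same directions. It read 5.94, 5.94 and 5.73 in neurons, 6.55, 6.67 and 6.94 in NSCs, and 4.82, 4.52 and 4.31 in yNSCs. The groups did not overlap, and the differences were -1.32 ± 0.15 for yNSCs against neurons, 0.85 ± 0.15 for NSCs against neurons and -2.17 ± 0.15 for yNSCs against NSCs (adjusted p = 2.48e-07). The strand of the probes over this overlap was not examined.

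Kcne1l, a small single-pass subunit, read 5.08, 4.94 and 4.37 in neurons, 4.61, 5.77 and 5.67 in NSCs, and 5.5, 5.5 and 5.76 in yNSCs. NSC array A lay among the neurons, apart from NSC arrays B and C. The rise in yNSCs of 0.79 ± 0.27 was called (adjusted p = 0.0237), except without neuron replicate C (0.58, adjusted p = 0.108) or yNSC replicate C (0.70, adjusted p = 0.0779). The NSC difference of 0.55 ± 0.27 was not (adjusted p = 0.0905) and became 0.92 (adjusted p = 0.00146) without NSC replicate A and 0.76 (adjusted p = 0.0192) after renormalizing by quantiles.

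Among the 8 pores of the calcium- or sodium-activated families, 5 (62.5%) were lower in each stem cell group than in neurons. The shares over all genes were 27.9% in yNSCs and 34.1% in NSCs. In yNSCs 2 were higher and in NSCs 1, where 34.6% and 33.3% of all genes were. Kcnma1, the BK pore that Kcnmb4 joins, read 8.20, 8.12 and 8.40 in neurons, 6.05, 6.13 and 5.73 in NSCs, and 5.39, 5.22 and 5.58 in yNSCs. The groups were ordered neurons, NSCs, yNSCs without overlap. It was lower by -2.84 ± 0.14 in yNSCs (adjusted p = 3.17e-09) and -2.27 ± 0.14 in NSCs (adjusted p = 2.12e-08), and by -0.57 ± 0.14 in yNSCs against NSCs (adjusted p = 0.00531). All 5 of its probe sets were lower in yNSCs than in NSCs and than in neurons, but 2 were higher in NSCs than in neurons, by 2.09 and 0.75.

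Kcnn2, a small-conductance channel that shapes the afterhyperpolarisation, read 7.86, 7.78 and 7.78 in neurons, 4.96, 5.09 and 5.14 in NSCs, and 5.29, 5.12 and 5.01 in yNSCs. Its stem cell arrays overlapped well below the neurons. The differences from neurons were -2.67 ± 0.11 in yNSCs and -2.74 ± 0.11 in NSCs, and the interval between yNSCs and NSCs was -0.15 to 0.31. Kcnn4, the intermediate-conductance channel, was higher in both, by 0.34 in yNSCs (lost under both scalings) and 1.06 in NSCs.

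Kcnt2, a sodium-activated channel, read 6.31, 6.68 and 6.35 in neurons, 1.95, 2.71 and 2.65 in NSCs, and 3.26, 3.32 and 3.04 in yNSCs. All stem cell arrays were below the background level, so the called difference of 0.77 between yNSCs and NSCs lay between values of that kind. Against neurons, it was at least 8.07-fold lower in NSCs (adjusted p = 2.18e-09) and at least 7.78-fold lower in yNSCs (adjusted p = 1.58e-08).

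Kcnu1, a channel best known from sperm, read 5.73, 4.71 and 4.38 in neurons, 2.80, 3.37 and 3.18 in NSCs, and 3.46, 3.47 and 3.46 in yNSCs. Neuron array A was more than 2-fold from the other neuron arrays, yet all neuron arrays lay above all stem cell arrays. The gene was at least 2.84-fold lower in NSCs (adjusted p = 7.59e-05) and at least 2.74-fold lower in yNSCs (adjusted p = 0.000443).

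**Figure D3:**
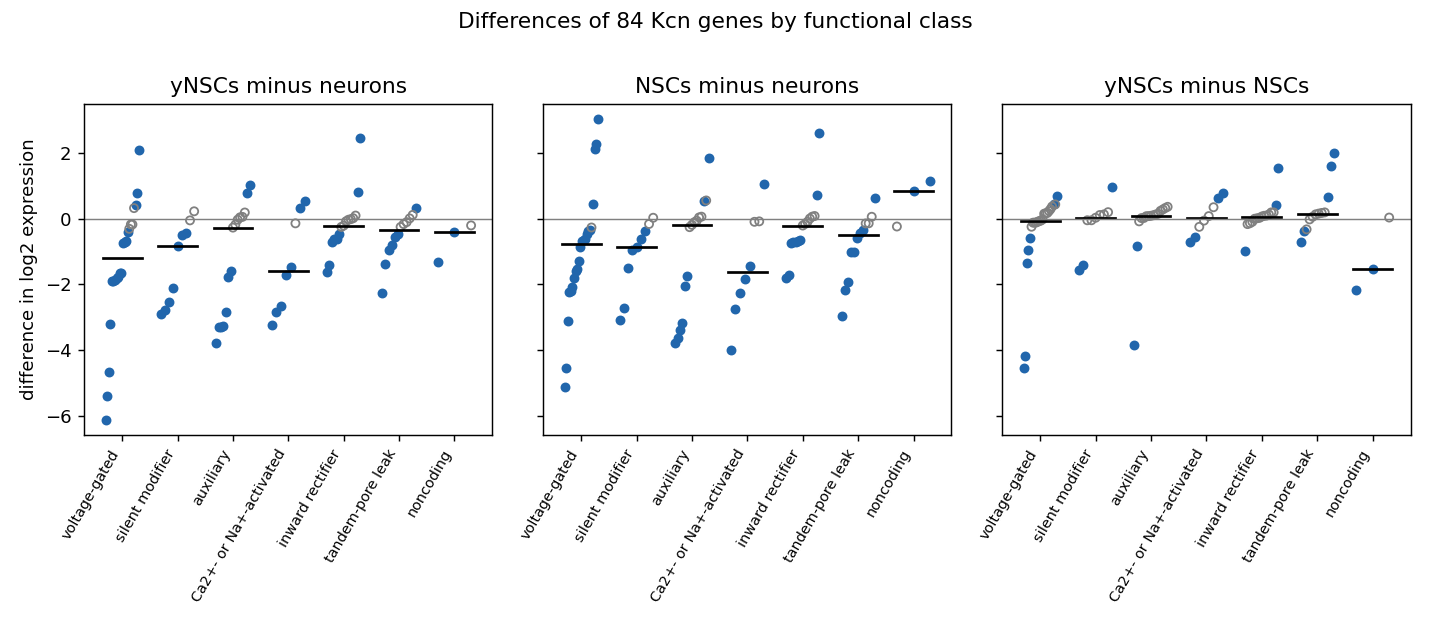
Difference in log2 expression of each of the 84 Kcn genes by functional class, for yNSCs minus neurons, NSCs minus neurons and yNSCs minus NSCs; filled points were called at an adjusted p under 0.05, open points were not, and bars are class medians. Class medians lie below 0 against neurons in both stem cell groups except for the noncoding genes in NSCs, and near 0 between yNSCs and NSCs except for the noncoding genes.

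Inward rectifiers moved in both directions, with more lower than higher against neurons. Of 15, 6 were lower in yNSCs than in neurons, where 27.9% of all genes were, and 2 (13.3%) higher, against 34.6%. In NSCs 7 (46.7%) were lower and 2 (13.3%) higher, against 34.1% and 33.3%, or 7 and 5 after renormalizing by quantiles. Between yNSCs and NSCs 12 were not called. Kcnj16, which forms mixed channels with Kcnj10, read 4.99, 4.31 and 4.12 in neurons, 6.81, 7.16 and 7.28 in NSCs, and 7.07, 7.07 and 6.61 in yNSCs. Both stem cell groups lay above neurons and overlapped each other. It rose by 2.44 ± 0.22 in yNSCs (adjusted p = 7.45e-07), the largest rise of a channel gene there, and by 2.61 ± 0.22 in NSCs (adjusted p = 3.81e-07), with an interval of -0.64 to 0.31 between them.

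Kcnj10 read 9.24, 8.92 and 8.88 in neurons, 8.02, 8.25 and 8.55 in NSCs, and 9.97, 9.77 and 9.75 in yNSCs. The yNSC arrays were highest and the NSC arrays lowest, without overlap. It was higher in yNSCs than in NSCs by 1.56 ± 0.15 (adjusted p = 4.58e-06) and than in neurons by 0.82 ± 0.15 (adjusted p = 0.000382), and lower in NSCs than in neurons by -0.74 ± 0.15 (adjusted p = 0.000776).

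Kcnj11, the pore of ATP-sensitive channels, read 8.52, 8.77 and 8.57 in neurons, 8.45, 8.43 and 8.35 in NSCs, and 8.40, 8.34 and 8.48 in yNSCs. Neurons lay slightly above both, by differences of -0.21 ± 0.10 in each that were not called (adjusted p = 0.0893 and 0.0879). After renormalizing by quantiles they became -0.51 (adjusted p = 0.00167) in yNSCs and -0.56 (adjusted p = 0.000859) in NSCs, and after subtracting array medians -0.40 and -0.35 (adjusted p = 0.00722 and 0.015). Between yNSCs and NSCs the interval was -0.23 to 0.22. Kcnj8, the other such pore and one that marks mural cells, was near background in every group. Summed endothelial and mural markers were 7.76 to 7.99 in neurons, 9.43 to 9.92 in NSCs and 12.31 to 12.73 in yNSCs, a sum carried by the contractile genes Acta2 (means of 5.95, 9.10 and 10.79) and Tagln (5.72, 7.14 and 11.93). Of the 8 markers, 3 (37.5%) were higher in yNSCs than in neurons and 3 (37.5%) lower, against 34.6% and 27.9% of all genes. The endothelial marker Pecam1 was near background in every group.

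The tandem-pore leak channels included both of the other genes more than 2-fold higher in yNSCs than in NSCs. Of 12, 6 were lower in yNSCs than in neurons, where 27.9% of all genes were. There 1 (8.3%, against 34.6%), Kcnk3, was higher, a rise lost under both scalings. In NSCs 8 (66.7%, against 34.1%) were lower and 1 (8.3%, against 33.3%) higher, or 5 and 2 after renormalizing by quantiles. Of the 12, 3 were higher in yNSCs than in NSCs, where 21.3% of all genes were, and 2 (16.7%, against 18.0%) were lower. Both shares were close to those over all genes. Kcnk1, a weak leak channel of neurons and astrocytes, read 9.43, 9.32 and 9.43 in neurons, 6.79, 6.25 and 6.22 in NSCs, and 8.38, 8.51 and 8.38 in yNSCs. The yNSC arrays lay between the others without overlap. It was higher in yNSCs than in NSCs by 2.0 ± 0.14 (adjusted p = 4e-07), the largest such rise of a channel gene, and lower than in neurons by -0.97 ± 0.14 in yNSCs and -2.97 ± 0.14 in NSCs.

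Kcnk2, a leak channel opened by stretch and lipids, had the same order and read 8.91, 8.75 and 8.73 in neurons, 6.26, 6.68 and 6.96 in NSCs, and 8.27, 8.24 and 8.24 in yNSCs. No groups overlapped. It was higher in yNSCs than in NSCs by 1.62 ± 0.15 (adjusted p = 4.12e-06), and against neurons it was lower by -0.55 ± 0.15 in yNSCs (adjusted p = 0.00739) and -2.16 ± 0.15 in NSCs (adjusted p = 8.3e-08). The third leak channel higher in yNSCs than in NSCs, Kcnk3, differed by 0.66 (adjusted p = 0.000595).

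The summed astrocyte markers were also higher in yNSCs than in NSCs. Kcnj10, Kcnk1 and Kcnk2 are the genes named for being more than 2-fold higher there, so their shared order was set by that choice. Kcnj16 was not called between these groups (-0.17). Against neurons, Kcnk1 and Kcnk2 were lower in yNSCs, as was the astrocyte sum, whereas Kcnj10 was higher by 0.82. Of 8 astrocyte markers, 5 (62.5%) were higher in yNSCs than in NSCs and 0 lower, against 21.3% and 18.0% of all genes. In NSCs 1 was higher than in neurons and 5 (62.5%) lower, against 33.3% and 34.1%. In yNSCs 3 (37.5%) were higher than in neurons and 2 lower, close to the 34.6% and 27.9% over all genes. The part of astrocyte-like cells in these differences was not tested. Channels also known from microglia include Kcna3, Kcnk6, Kcnk13, Kcnn4 and Kcnj2. Kcnn4 was higher than in neurons by 1.06 in NSCs and by 0.34 in yNSCs, the latter lost under both scalings. Kcnj2 was near background in every group. In NSCs Kcna3 was at least 3.45-fold lower than in neurons, Kcnk6 was lower by -1.0 and Kcnk13 by -0.43, a call lost after renormalizing by quantiles. In yNSCs Kcna3 was lower by -1.65 and Kcnk6 at least 2.33-fold, and Kcnk13 was not called (-0.25, adjusted p = 0.057). Of 8 microglia markers, 8 were lower in NSCs and 7 (87.5%) in yNSCs than in neurons, against 34.1% and 27.9% of all genes. The part of microglia in the neuron cultures was not tested.

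Kcnq1ot1, the long noncoding RNA that silences imprinted genes around Kcnq1, read 6.77, 6.96 and 7.0 in neurons, 7.98, 7.97 and 8.18 in NSCs, and 6.49, 6.71 and 6.32 in yNSCs. NSCs were highest and yNSCs lowest, without overlap. It was higher in NSCs than in neurons by 1.13 ± 0.12 (adjusted p = 4.79e-06) and lower in yNSCs than in NSCs by -1.54 ± 0.12 (adjusted p = 1.16e-06). Of its 6 probe sets, 2 were lower in NSCs than in neurons, by -1.18 and -1.13. Its fall of 0.40 in yNSCs against neurons (adjusted p = 0.0131) was lost without yNSC replicate C (adjusted p = 0.0619).

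**Figure D4:**
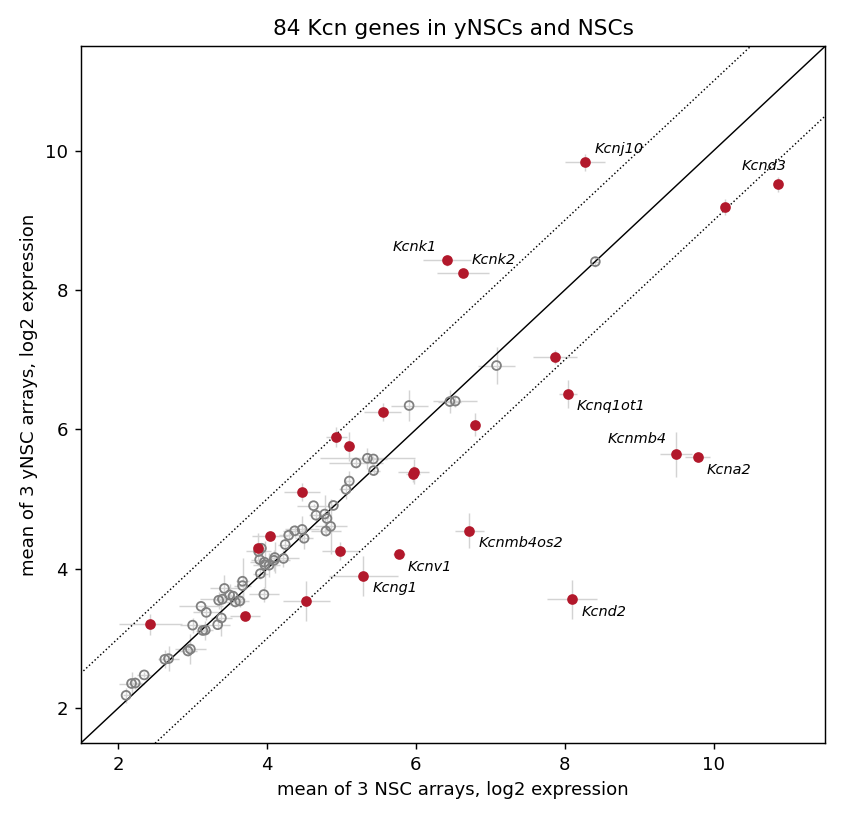
Mean log2 expression of the 84 Kcn genes in yNSCs (vertical) against NSCs (horizontal), 3 arrays each; error bars are SD, filled points were called between the groups at an adjusted p under 0.05, the solid line is equality and dotted lines are 2-fold differences. Kcnj10, Kcnk1 and Kcnk2 lie above the upper dotted line, and Kcnd2, Kcna2 and Kcnmb4 lie farthest below the lower one.

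Other genes of potassium handling were taken from lists of partner proteins, related channels and transporters. Of 19 measured partner and anchoring proteins, 14 (73.7%, against 27.9% of all genes) were lower in yNSCs than in neurons and 2, where 34.6% of all genes were, higher. In NSCs 15 (78.9%) were lower than in neurons, against 34.1%, and 0 higher. Against NSCs, 6 (31.6%) were higher in yNSCs and 3 (15.8%) lower, against 21.3% and 18.0%. Dpp10 and Dpp6, which join the A-type pores, had means of 8.33 and 8.25 in neurons, 2.74 and 5.68 in NSCs, and 2.78 and 4.51 in yNSCs. Cntnap2, which clusters Kcna channels along axons, was at 9.19 in neurons, 3.39 in NSCs and 5.98 in yNSCs, and was higher in yNSCs than in NSCs by 2.59 ± 0.13 (adjusted p = 2.54e-08). This direction is opposite to that of Kcna2.

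Of 7 measured cyclic nucleotide-gated channel genes (the HCN and CNG families), 5 (71.4%) were lower in yNSCs and 4 (57.1%) in NSCs than in neurons. The shares over all genes were 27.9% and 34.1%. Between yNSCs and NSCs their differences ran from -0.15 for Cnga1 to 0.27 for Hcn2, with adjusted p of 0.121 or above. Of 18 pumps and cotransporters, 7 (38.9%) were lower in yNSCs than in neurons and 5 (27.8%) higher, where 27.9% and 34.6% of all genes were. In NSCs 8 (44.4%) were lower and 4 (22.2%) higher, where 34.1% and 33.3% of all genes were. Against NSCs, 6 (33.3%) were higher in yNSCs and 2 (11.1%) lower, where 21.3% and 18.0% of all genes were. Their median differences were -0.09 for yNSCs minus neurons, -0.24 for NSCs minus neurons and 0.06 for yNSCs minus NSCs, against -0.01, -0.07 and 0.07 over all genes. Slc12a5, the neuronal chloride extruder, was at 10.57 in neurons, 4.70 in NSCs and 5.56 in yNSCs. Slc12a4, a potassium and chloride cotransporter of many tissues, was higher than in neurons by 2.59 ± 0.22 in yNSCs and 2.56 ± 0.22 in NSCs. The sodium pump subunit Atp1b1 was at 12.64 in neurons, 9.03 in NSCs and 11.26 in yNSCs, and was higher in yNSCs than in NSCs by 2.23 ± 0.19 (adjusted p = 1.71e-06).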

How the data were processed

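Expression was measured on Affymetrix mouse arrays in 3 neuron, 3 NSC and 3 yNSC samples, grouped by their titles. Per the labels and the file, the deposited values are log2 signals that the authors obtained with RMA, and the RMA version is not given in the sources used here. RMA draws low signals together, so differences between dim probe sets are understated. Of 45101 probe sets, 34945 with 1 gene symbol were used, and 64 controls and 932 sets with several symbols were left out. All 84 channel genes matched RefSeq by gene ID, and 46 had several probe sets.

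One probe set per gene, that of highest mean over the 9 arrays, entered limma 3.58.1 in R 4.3.3 (lmFit and eBayes, group only, 6 residual and 5.59 prior degrees of freedom) for all 18193 genes. Genes were called at a Benjamini-Hochberg adjusted p under 0.05. The fit was tested on simulated data. Replicas are called biological in the labels, and the number of arrays limits the precision. Values in every array are given for the 6 largest called rises and falls of each comparison, the member of largest difference in each subfamily, and the 2 brightest members not called in each comparison. The members and lists were chosen with earlier results of these data known. Promoters are RefSeq's on GRCm38.p6, and the build behind the array files is not used here. Alternatives covered scaling, probe set choice, a filter on low values, a 2-fold minimum, the variance model, the arrays in the fit, a replicate block and leaving out each array.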

Additional observations from a re-analysis of the deposited data

How the results depend on the processing

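Lower calls against neurons outnumbered higher calls in each alternative tried, but the counts moved. With differences under 2-fold left out, 3 genes were higher in yNSCs and 7 in NSCs than in neurons, 31 were lower in NSCs than in neurons, and 3 were higher in yNSCs than in NSCs and 8 lower. When all probe sets of a gene had to be called alike, 4 genes were higher in yNSCs and 6 in NSCs than in neurons, and 6 were higher in yNSCs than in NSCs and 6 lower. Without the 40% of genes of lowest mean, 21 genes were lower in yNSCs and 19 in NSCs than in neurons, since fewer channel genes were tested, and the median differences were -1.15 for yNSCs minus neurons and -0.10, reversed, for yNSCs minus NSCs. After renormalizing by quantiles, 19 genes were higher in NSCs than in neurons, the median for NSCs minus neurons was -0.34, and that for yNSCs minus NSCs was reversed at -0.073. The cause of these moves under quantiles was not tested. The median was -0.44 for NSCs minus neurons with the mean of all probe sets, and -0.71 for yNSCs minus neurons with array medians subtracted.

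Leaving out each array in turn gave 8 to 11 genes higher and 45 to 49 lower in yNSCs than in neurons, 11 to 12 higher and 47 to 51 lower in NSCs than in neurons, and 8 to 13 higher and 15 to 17 lower in yNSCs than in NSCs. The medians ranged from -0.56 to -0.51, from -0.66 to -0.53 and from 0.0025 to 0.09. With the replicate letter as a block (replicate block), the counts were 10 and 48, 12 and 50, and 9 and 16, and the medians were -0.52, -0.62 and 0.06. Arrays of the same letter did not deviate together (r of -0.105 to 0.1 over 9 pairs), and in 2 of 18 cases the best partner had the same letter. Of 93 results for the 31 genes given with values in every array, 13 changed call in at least 1 alternative. Sign changed in 0 results that were called in the main fit or in the alternative. Sign changes of uncalled differences near 0 were not counted. Signal over background limits what can be said of the 9 genes near background in all groups.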
